A study of Mus musculus with 16 samples.

Results

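Transcripts of 10 genes of the AP-1 and immediate early response were followed in whole colon tissue of mice with inflammation-associated cancer. The members were taken by their symbols, and all 10 were found among the 19574 genes of the deposited count table: Fos, Fosb, Fosl1 and Fosl2 of the Fos family, Jun, Junb and Jund of the Jun family, and Atf3, Egr1 and Ier3. Libraries came from tumors and tumor-adjacent normal colon of 5 Il23rΔTreg mice (genotype Il23rflflFoxp3YFP-Cre, labelled KO) and 3 WT mice (genotype Foxp3YFP-Cre), 1 tumor and 1 adjacent normal library per mouse, 16 in all. Both genotypes carry the Cre that the Foxp3 promoter drives in regulatory T (Treg) cells, so WT differs from Il23rΔTreg by the floxed Il23r and not by the Cre. All mice were male by their labels and received the carcinogen azoxymethane (AOM) at 10 mg per kg and 3 cycles of 5 days of 3.5% dextran sodium sulphate (DSS), which injures the colon epithelium, each followed by 16 days of recovery. Mice were 7 to 8 weeks old when the protocol began, and the adjacent normal colon was taken at full thickness. The comparisons ask how tumors differ from adjacent normal colon in each genotype, and how the loss of the IL-23 receptor in Treg cells changes either tissue.

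AP-1 is a dimer of basic leucine zipper proteins, in which a Jun protein pairs with itself, with a Fos protein or with an ATF protein such as ATF3. Immediate early genes are transcribed within minutes of a growth factor, cytokine or injury signal without need of new protein. Many of them, Fos, Fosb and Egr1 among them, are short-lived transcripts driven by MAP kinases and serum response factor. In the intestine, AP-1 acts downstream of growth factor, Wnt and inflammatory signals and is known for its targets in proliferation, matrix breakdown and prostaglandin synthesis.

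The 250 bases before the start of transcription are shown for 3 members that part in these data: Ier3 and Jun, which were higher in tumors of both genotypes, and Fos, the founding member, which was not. The sequences are from RefSeq on GRCm38.p6, on each gene's own strand, and capitals mark a match to the letters searched on either strand, other than GC boxes, which are left in lower case.
Ier3, chr17:35821463-35821712, plus strand: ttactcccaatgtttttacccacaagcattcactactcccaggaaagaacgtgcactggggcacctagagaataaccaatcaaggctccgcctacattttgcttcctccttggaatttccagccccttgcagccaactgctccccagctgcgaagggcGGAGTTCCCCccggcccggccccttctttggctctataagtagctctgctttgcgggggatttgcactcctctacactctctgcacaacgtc
Jun, chr4:95052223-95052472, minus strand: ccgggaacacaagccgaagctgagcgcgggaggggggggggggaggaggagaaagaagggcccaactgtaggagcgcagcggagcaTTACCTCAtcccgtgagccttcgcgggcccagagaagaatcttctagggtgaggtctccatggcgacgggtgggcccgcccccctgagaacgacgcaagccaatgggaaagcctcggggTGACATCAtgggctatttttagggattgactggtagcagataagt
Fos, chr12:85473640-85473889, plus strand: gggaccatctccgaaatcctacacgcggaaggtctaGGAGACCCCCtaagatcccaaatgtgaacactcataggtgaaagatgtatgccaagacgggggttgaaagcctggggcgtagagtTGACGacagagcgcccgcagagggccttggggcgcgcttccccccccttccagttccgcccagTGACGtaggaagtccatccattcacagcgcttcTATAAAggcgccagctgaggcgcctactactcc
In the Ier3 window, 1 NF-kB site is in capitals, from base -92 to -83 counted back from the start, and the GC box GGGCGG, from -96 to -91, overlaps it. The Jun window holds TTACCTCA from -164 to -157 and TGACATCA from -45 to -38, the forms in which AP-1 sites are known in the human JUN promoter, and a GC box from -89 to -84. The Fos window holds an NF-kB site from -214 to -205, the half-site TGACG of the cAMP response element from -129 to -125 and from -66 to -62, a GC box from -74 to -69, and the TATA box TATAAA from -33 to -28. RefSeq windows of 300 bases (250 before and 50 after the start) were matched for 8 of the 10 members, all but Fosl1 and Egr1. The half-site TGACG was in 4 of the 8, against 20.8% of 32851 promoters of the same length, and an NF-kB site was in 4 of the 8, against 8.46%. The AP-1 site TGANTCA, the full element TGACGTCA, the CArG box and the Egr site GCGTGGGCG were in 0 of the 8 windows, against 7.81%, 1.79%, 1.63% and 0.612% of all promoters. The GC box GGGCGG was in 6 of the 8, against 35.7%. G and C made up 54.4% of the 250 bases printed for Ier3, 61.2% for Jun and 58.4% for Fos. The median over all promoters was 52.4%, and the part of base composition in these shares was not tested. TGACATCA was in 3.62% and TTACCTCA in 0.889% of all promoters, and TATAAA was in 2 of the 8 members' windows and 13.6% of all. The letters TGACATCA and TTACCTCA were added after the sequences were seen, so their match in Jun is no test. A TGACG match may lie within TGACGTCA, and a match describes the letters of this window only.

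The 16 libraries held 34418067 to 60836474 counts each, and 17122 genes, all 10 members among them, passed the filter on low counts. Levels are given as CPM, a gene's counts relative to the library total, scaled by the trimmed mean of M values (TMM). The tumor library of WT mouse2988 stood apart, with the lowest TMM factor (0.67) and 29.65% of its counts on the ribosomal RNA Rn18s, against 0.3425 to 19.38% in the other 15 libraries. By genotype, the Rn18s share was 0.3425 to 9.447% in Il23rΔTreg libraries and 2.391 to 29.65% in WT libraries. How this difference bears on the contrasts between genotypes was not tested beyond leaving Rn18s out of the library size. Il23r was at 0.0224 to 0.126 CPM in Il23rΔTreg tumors and 0 to 0.162 CPM in WT tumors, and a deletion in Treg cells alone cannot be checked in whole tissue. All WT mice shared a cage label that no Il23rΔTreg mouse carried, so cage and genotype cannot be told apart. Epithelial markers were abundant in every library (8 genes, 8907 to 17490 summed CPM). The 8 smooth muscle markers summed to 224.3 to 1575 CPM in Il23rΔTreg tumors against 7008 to 10390 CPM in their adjacent normal colon, and to 559.5 to 823.6 CPM in WT tumors against 6348 to 8233 CPM in WT adjacent normal colon. In whole tissue, fewer cells of a type and less RNA per cell cannot be told apart.

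Fosl1, Jun, Egr1 and Ier3 were higher in tumors than in adjacent normal colon in both genotypes, with 0.05 as the limit on the adjusted p and 1 as the limit on the size of the log2 fold change, and no member was lower. This is 4 of 10 members in each genotype. Over all genes tested, 9.53% were called higher and 16.1% lower in Il23rΔTreg tumors, and 12.1% were called higher and 12.9% lower in WT tumors. The members' median log2 fold change was 0.776 in Il23rΔTreg mice, against -0.001 over all genes, and 1.036 in WT mice, against -0.011. The members were chosen with earlier results of these data known, so counts and medians set against all genes describe them and are no test. Each tumor library was above each adjacent normal library of its genotype for 5 members in Il23rΔTreg mice (Fosl1, Jun, Junb, Egr1 and Ier3), as for 17.2% of all genes. The same held for 5 members in WT mice (Fosl1, Jun, Atf3, Egr1 and Ier3), as for 23.4% of all genes. Smooth muscle markers (8 of 8 lower in tumors of both genotypes) and neutrophil markers (8 of 8 higher in Il23rΔTreg and 7 of 8 in WT tumors) moved with these contrasts, as did 7 of 8 enteric neuron and glia markers, lower in tumors of both genotypes. In Il23rΔTreg tumors 6 of 6 B and plasma cell, 4 of 8 macrophage, 3 of 8 T cell and 3 of 8 fibroblast markers were also lower, and in WT tumors 6 of 8 T cell markers were higher. The part of these cells in the members' values was not tested. The neutrophil markers summed to 129.7 to 577 CPM in Il23rΔTreg tumors against 14.2 to 147.1 CPM in their adjacent normal colon, and to 191 to 286.3 CPM in WT tumors against 6.328 to 26.92 CPM in WT adjacent normal colon. The B and plasma cell markers summed to 64.37 to 596.6 CPM in Il23rΔTreg tumors against 636.3 to 3217 CPM in their adjacent normal colon, and to 510.5 to 1355 CPM in WT tumors against 582.5 to 1607 CPM in WT adjacent normal colon. The macrophage markers summed to 159.8 to 337.8 CPM in Il23rΔTreg tumors against 377.1 to 614.1 CPM in their adjacent normal colon, and to 583.7 to 782.7 CPM in WT tumors against 288 to 624 CPM in WT adjacent normal colon. The T cell markers summed to 17.18 to 34.3 CPM in Il23rΔTreg tumors against 33.16 to 101.5 CPM in their adjacent normal colon, and to 78.73 to 109.3 CPM in WT tumors against 30.53 to 76.19 CPM in WT adjacent normal colon. None of the markers on these lists was at 0 in all libraries of a group.

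**Figure D1:**
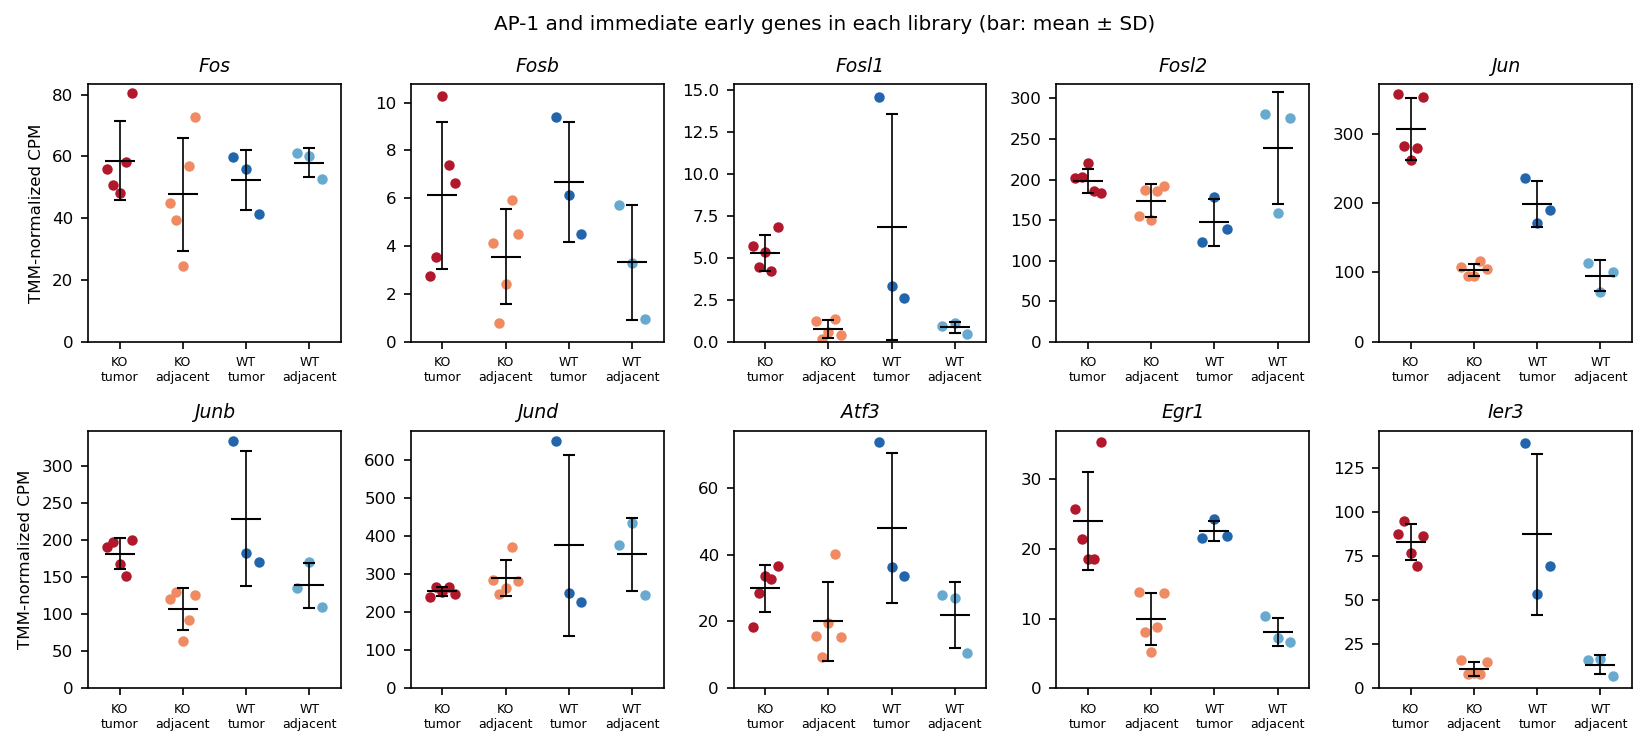
TMM-normalized CPM of the 10 members (vertical axes, each starting at 0) in tumors and adjacent normal colon of 5 Il23rΔTreg (KO) and 3 WT mice. Each point is 1 library and the bars are the mean and SD; Jun, Egr1, Ier3 and Fosl1 separate tumor from adjacent normal colon in both genotypes, and the WT tumor of mouse2988 is the highest point of Fosl1, Junb, Jund, Atf3 and Ier3.

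Jun encodes the AP-1 subunit that dimerizes with itself or with any Fos protein. In tumors of Il23rΔTreg mice mouse2901, mouse2902, mouse2903, mouse2904 and mouse3883, as the labels name them, it was at 356.8, 283, 262.8, 279 and 353.2 CPM, against 107.4, 95.16, 95.26, 116.4 and 105.2 CPM in the adjacent normal colon of the same mice in the same order. In tumors of WT mice mouse2988, mouse2989 and mouse2990 it was at 235.8, 171.6 and 190.2 CPM, against 114, 71.33 and 101 CPM in their adjacent normal colon. No tumor overlapped the adjacent normal libraries of its genotype, and the means differed 2.95-fold in Il23rΔTreg mice and 2.09-fold in WT mice. The log2 fold change was 1.56 ± 0.15 (standard error, adjusted p = 1.53e-06, edgeR's quasi-likelihood test with Benjamini-Hochberg adjustment) in Il23rΔTreg mice and 1.06 ± 0.19 (adjusted p = 0.000599) in WT mice. The WT value is close to the fold limit and fell below it without mouse2989 (0.98, adjusted p = 0.00257) and without the tumor library of mouse2988 (0.96, adjusted p = 0.00236).

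Junb, a Jun protein with weaker transactivation that can restrain c-Jun, was at 191.2, 197.2, 167.7, 151.5 and 199.7 CPM in Il23rΔTreg tumors, against 120.5, 129.8, 63.3, 92.49 and 126 CPM in their adjacent normal colon. WT tumors had 333.5, 183 and 170.2 CPM of Junb, against 135.6, 170.9 and 110.2 CPM in WT adjacent normal colon. The Il23rΔTreg groups did not overlap, while the lowest WT tumor lay just under the highest WT adjacent normal library. Its log2 fold change was 0.77 ± 0.22 (adjusted p = 0.00901) in Il23rΔTreg mice, past the threshold on p and under the fold limit, and 0.72 ± 0.28 (adjusted p = 0.0535) in WT mice. Without mouse2989 the WT value was 1.03 (adjusted p = 0.0305), and without mouse2988 it was 0.32 (adjusted p = 0.47).

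Jund is the Jun gene expressed broadly in resting cells, and its level differed little between the tissues. Its means were 255.8 ± 11.4 CPM in Il23rΔTreg tumors (SD, n = 5) and 290.7 ± 48.4 CPM in their adjacent normal colon (SD, n = 5). In WT tumors it was at 651.8, 251.2 and 226.1 CPM, and in WT adjacent normal colon at 376.5, 435.4 and 246.2 CPM. The highest of all 16 values was the tumor of mouse2988, and the other WT tumors lay within or below the range of the WT adjacent normal colon. The log2 fold change was -0.18 (95% interval -0.71 to 0.34) in Il23rΔTreg mice and 0.09 (95% interval -0.58 to 0.77) in WT mice, where it was -0.53 without mouse2988 (adjusted p = 0.122).

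Fosl1 encodes FRA-1, the Fos protein known from invasive tumors and itself a target of AP-1, and rose in tumors of both genotypes. Il23rΔTreg tumors had 5.714, 4.42, 5.318, 4.219 and 6.858 CPM, against 1.25, 0.1869, 0.5881, 1.364 and 0.4037 CPM in their adjacent normal colon. WT tumors had 14.58, 3.297 and 2.615 CPM, against 0.943, 1.148 and 0.4673 CPM in WT adjacent normal colon. Tumor and adjacent normal libraries did not overlap in either genotype, although the transcript stayed scarce, and the WT tumor of mouse2988 had the highest level of all 16 libraries. The log2 fold change was 2.81 ± 0.55 (adjusted p = 0.000617) in Il23rΔTreg mice and 2.99 ± 0.71 (adjusted p = 0.00424) in WT mice. Without mouse2988 the WT value was 1.86 and no longer passed (adjusted p = 0.0656), and without only its tumor library it was 1.84 (adjusted p = 0.0319).

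Fos, the prototype immediate early gene, was at similar levels in all groups. Tumors of Il23rΔTreg mice had 55.97, 50.62, 48.12, 58.12 and 80.51 CPM, against 44.78, 39.49, 24.62, 56.94 and 72.73 CPM in their adjacent normal colon. WT tumors had 59.95, 55.98 and 41.54 CPM, against 61.13, 60.25 and 52.55 CPM in WT adjacent normal colon. Within mice, the tumor was above the adjacent normal colon in 5 of 5 Il23rΔTreg mice and in 0 of 3 WT mice, but the groups overlapped in both genotypes. Its log2 fold change was 0.30 (95% interval -0.19 to 0.79, adjusted p = 0.306) in Il23rΔTreg mice and -0.14 (95% interval -0.77 to 0.49, adjusted p = 0.722) in WT mice. Fosb, a Fos gene also induced early, was low, at 2.752 to 10.28 CPM in Il23rΔTreg tumors against 0.7849 to 5.909 CPM in their adjacent normal colon, and at 4.495 to 9.402 CPM in WT tumors against 0.9346 to 5.712 CPM in WT adjacent normal colon. These ranges overlapped, and neither log2 fold change passed (0.78, adjusted p = 0.235 in Il23rΔTreg mice and 1.01, adjusted p = 0.246 in WT mice).

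Fosl2 encodes FRA-2, a Fos protein with slower kinetics than c-Fos. Il23rΔTreg tumors had 202.1, 202.7, 219.8, 186.1 and 183 CPM, against 154.9, 186.8, 149.7, 186.1 and 192.1 CPM in their adjacent normal colon. WT tumors had 123.2, 178.8 and 139.3 CPM, against 280.9, 159.2 and 276.1 CPM in WT adjacent normal colon. The gap in WT mice rested on mouse2988 and mouse2990, since mouse2989 had a little more in the tumor. The log2 fold change was 0.19 ± 0.16 (adjusted p = 0.331) in Il23rΔTreg mice. It was -0.70 ± 0.20 (adjusted p = 0.0131) in WT mice, past the threshold on p and short of the fold limit, with -1.09 (adjusted p = 0.000664) without mouse2989 and -0.47 (adjusted p = 0.155) without mouse2988.

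Atf3, a stress-induced ATF protein that pairs with Jun proteins, was at 18.29, 28.44, 33.53, 32.63 and 36.53 CPM in Il23rΔTreg tumors, against 15.76, 9.512, 19.53, 40.2 and 15.46 CPM in their adjacent normal colon. WT tumors had 73.7, 36.39 and 33.58 CPM, against 28.02, 27.12 and 10.51 CPM in WT adjacent normal colon. WT tumors were all above WT adjacent normal colon, whereas 1 Il23rΔTreg adjacent normal library, of mouse2904, exceeded every Il23rΔTreg tumor. The log2 fold change was 0.57 ± 0.37 (adjusted p = 0.217) in Il23rΔTreg mice and 1.13 ± 0.48 (adjusted p = 0.0711) in WT mice. With the mouse as a replicate block the WT value was 1.17 and passed (adjusted p = 0.0263), as it did under DESeq2 (1.16, adjusted p = 0.0384) and without mouse2904 (1.13, adjusted p = 0.042). Without the tumor library of mouse2988 it was 0.72 (adjusted p = 0.294).

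Egr1, a zinc finger factor induced through serum response factor, was at 25.79, 21.49, 18.6, 18.55 and 35.41 CPM in Il23rΔTreg tumors, against 13.8, 8.111, 5.212, 8.739 and 13.64 CPM in their adjacent normal colon. WT tumors had 21.56, 24.26 and 21.89 CPM, against 10.37, 7.202 and 6.678 CPM in WT adjacent normal colon. The groups did not overlap in either genotype, and the 3 WT tumors lay within 1.12-fold of each other. The log2 fold change was 1.28 ± 0.26 (adjusted p = 0.000781) in Il23rΔTreg mice and 1.48 ± 0.33 (adjusted p = 0.00291) in WT mice, and it remained past both thresholds under all alternatives run (adjusted p at most 0.0334).

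Ier3, an early response gene that acts on cell survival and is a target of NF-kB, rose in tumors of both genotypes. Il23rΔTreg tumors had 87.77, 94.99, 76.48, 69.53 and 86.31 CPM, against 15.95, 7.998, 8.457, 8.388 and 14.65 CPM in their adjacent normal colon. WT tumors had 139.3, 53.21 and 69.51 CPM, against 16.27, 16.68 and 7.029 CPM in WT adjacent normal colon. The lowest tumor stood 4.36-fold above the highest adjacent normal library in Il23rΔTreg mice and 3.19-fold in WT mice. Means differed 7.49-fold in Il23rΔTreg mice and 6.55-fold in WT mice, with log2 fold changes of 2.90 ± 0.31 (adjusted p = 4.1e-06) and 2.71 ± 0.40 (adjusted p = 0.000163).

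**Figure D2:**
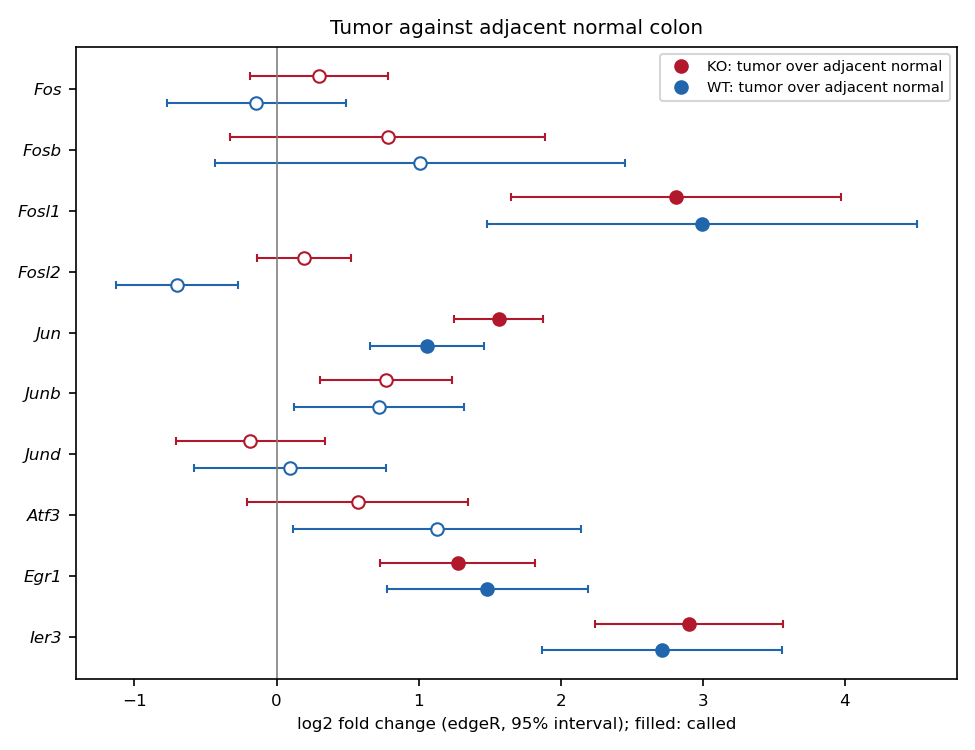
Log2 fold change of tumor over adjacent normal colon (horizontal axis, edgeR, with 95% intervals) for each member in Il23rΔTreg (KO, red) and WT (blue) mice. Filled points passed both thresholds: Fosl1, Jun, Egr1 and Ier3 in both genotypes; Fosl2 lies at 0.19 in Il23rΔTreg and at -0.70 in WT mice.

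Because each tumor has an adjacent normal sample of the same animal, the members were also followed within mice. Fosl1, Jun, Junb, Egr1 and Ier3 were higher in the tumor in 8 of 8 mice, and Fosb and Atf3 in 7 of 8. Fos and Fosl2 were higher in 5 of 8, and Jund in 2 of 8. The count of Fosl2 includes mouse2904, where tumor and adjacent normal colon were both at 186.1 CPM (difference 0.0003). The share of all genes with such counts was not taken, so the counts describe these members only. For Jun the differences were 1.25 to 1.74 in Il23rΔTreg mice and 0.91 to 1.25 in WT mice, on the log2(CPM + 1) scale. For Ier3 the differences were 2.39 to 3.42 in Il23rΔTreg mice and 1.62 to 3.14 in WT mice.

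**Figure D3:**
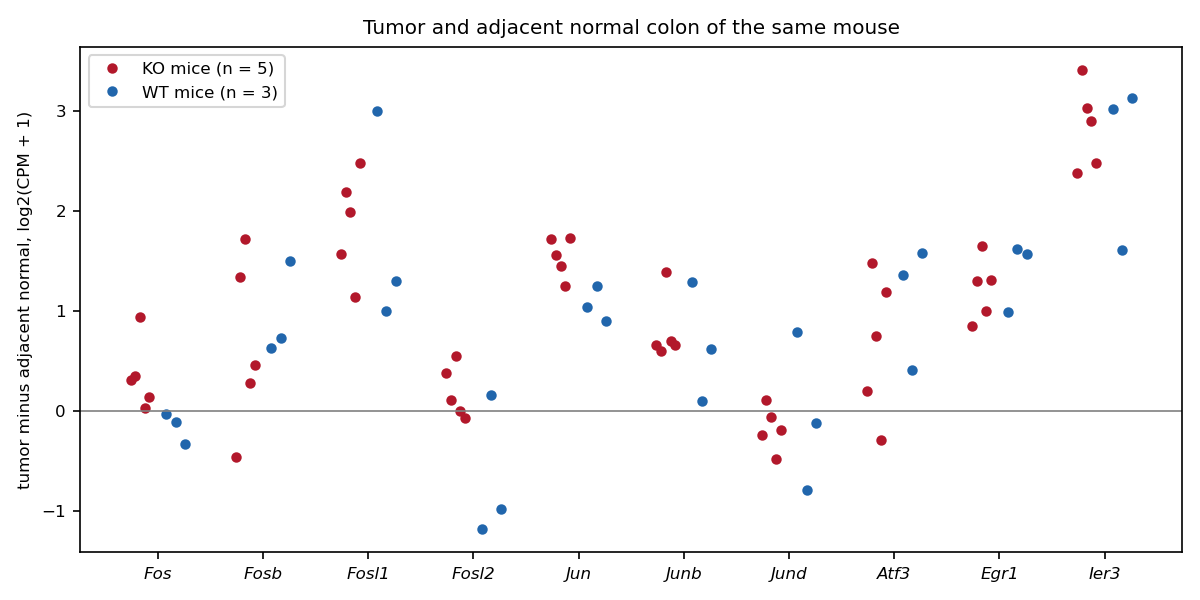
Difference between tumor and adjacent normal colon of the same mouse (vertical axis, log2(CPM + 1)) for each member, with 1 point per mouse (red, 5 Il23rΔTreg mice; blue, 3 WT mice). All 8 mice are above 0 for Fosl1, Jun, Junb, Egr1 and Ier3; for Fos the 5 Il23rΔTreg mice are above and the 3 WT mice below 0.

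Levels of different genes were compared per kilobase of exon (GENCODE M21). In Il23rΔTreg tumors the order was Jund (153.3 CPM per kb), Jun (96.26), Junb (78.86), Ier3 (73.4), Fos (24.94), Fosl2 (20.53), Atf3 (13.88), Egr1 (5.345), Fosl1 (2.61) and Fosb (0.98). Jun and Junb, Junb and Ier3, and Fos and Fosl2 overlapped between libraries as neighbours in this order. In the adjacent normal colon of the same mice Ier3 was lower in the order, in the 6th place at 9.805 CPM per kb, and Junb (46.25) and Jun (32.58) followed Jund (174.3). WT tumors ran from Jund (225.7), Junb (99.49), Ier3 (77.21) and Jun (62.46) down to Fosl1 (3.359) and Fosb (1.071), and WT adjacent normal colon from Jund (211.5) and Junb (60.37) to Fosb (0.5315) and Fosl1 (0.4194). Neighbours in the order overlapped between libraries, except for Jund over Junb, Fosl2 over Ier3, Atf3 over Egr1 and Egr1 over Fosb in Il23rΔTreg adjacent normal colon. In WT tumors they overlapped except for Jun over Fos and Fosl2 over Egr1, and in WT adjacent normal colon except for Jund over Junb, Junb over Jun, Fos over Ier3, Atf3 over Egr1 and Egr1 over Fosb. The place of Jund depends on its gene model: over the 2878 bases of the RefSeq gene, against 1668 in M21, it was at 88.87 CPM per kb in Il23rΔTreg tumors (83.81 to 92.96), with a mean below that of Jun and a range within that of Jun (82.42 to 111.9). Over that length Jund was still first in the other groups, at 101 CPM per kb in Il23rΔTreg adjacent normal colon, 130.8 in WT tumors and 122.5 in WT adjacent normal colon.

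Between Il23rΔTreg and WT tumors no member passed both thresholds, against 0.146% of all genes called higher and 1.58% called lower in Il23rΔTreg tumors. At an unadjusted p under 0.05 there were 2 of 10 members, Jun and Fosl2, as for 20.4% of all genes, and DESeq2 and limma called 0 members past both thresholds. These are also the 2 members for which every Il23rΔTreg tumor was above every WT tumor, as was the case for 9.34% of all genes. Jun was at 262.8 to 356.8 CPM in Il23rΔTreg tumors and 171.6 to 235.8 CPM in WT tumors, with a log2 fold change of 0.62 ± 0.17 (95% interval 0.26 to 0.99, adjusted p = 0.0679). By DESeq2 the adjusted p of Jun was 0.0201, and over all alternatives it ran from 0.0201 to 0.174, with a log2 fold change below 1 in each. Fosl2 was at 183 to 219.8 CPM in Il23rΔTreg tumors and 123.2 to 178.8 CPM in WT tumors (log2 fold change 0.43, 95% interval 0.05 to 0.82, adjusted p = 0.207). The intervals of the others were wide for Fosl1 (-1.58 to 0.87), Fosb (-1.39 to 1.14) and Atf3 (-1.56 to 0.20), and narrower for Fos (-0.40 to 0.73), Egr1 (-0.53 to 0.71), Ier3 (-0.78 to 0.63) and Junb (-0.86 to 0.19). Jund was at -0.56 (95% interval -1.15 to 0.04) and at 0.10 without the tumor library of WT mouse2988.

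In adjacent normal colon, 0 of 10 members differed between Il23rΔTreg and WT mice, where 0.00584% of all genes were called higher and 0% lower. Of the 10 members 1, Fosl2, had an unadjusted p under 0.05, as did 4.16% of all genes. It was at 149.7 to 192.1 CPM in Il23rΔTreg mice and 159.2 to 280.9 CPM in WT mice (log2 fold change -0.46, 95% interval -0.83 to -0.08, adjusted p = 0.964). DESeq2 and limma also called 0 members there. The difference between the tumor effects of the genotypes, Il23rΔTreg minus WT, was tested as an interaction and passed for no member and for 0% of all genes in each direction. The interaction had an unadjusted p under 0.05 for 2 of 10 members, as for 13.8% of all genes. These were Fosl2 at 0.89 ± 0.25 (95% interval 0.35 to 1.43, adjusted p = 0.178) and Jun at 0.50 ± 0.24 (95% interval 0.00 to 1.00, adjusted p = 0.36). For Fosl2 the 2 genotype contrasts run in opposite directions, above WT in tumors and below WT in adjacent normal colon, and neither passed. DESeq2 and limma called no member in the interaction. All of these contrasts share libraries, so they are not independent of each other or of the tumor comparisons above.

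**Figure D4:**
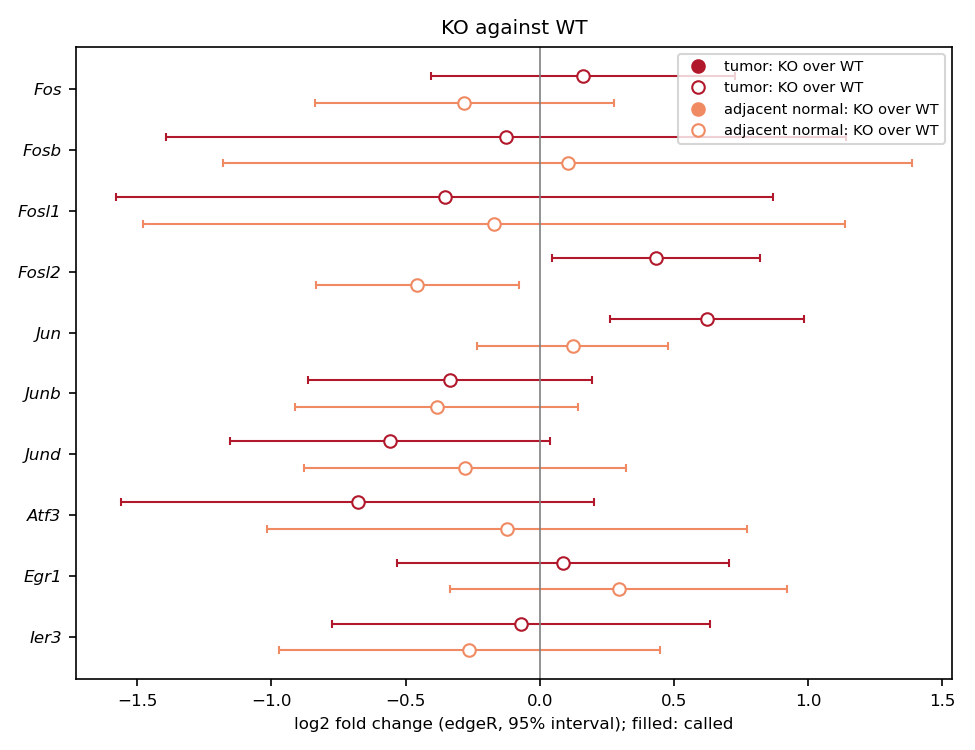
Log2 fold change of Il23rΔTreg over WT (horizontal axis, edgeR, with 95% intervals) in tumors (red) and in adjacent normal colon (orange) for each member. No point is filled, since none passed both thresholds; Jun in tumors, at 0.62, and Fosl2, at 0.43 in tumors and -0.46 in adjacent normal colon, have intervals that exclude 0.

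Among 12 other AP-1 and basic leucine zipper partners, 1 was higher and 1 lower in Il23rΔTreg tumors (median log2 fold change -0.02), and 4 were higher and 0 lower in WT tumors (median 0.59). Of all genes, 9.53% were called higher and 16.1% lower in Il23rΔTreg tumors, and 12.1% and 12.9% in WT tumors. Mafg, a small Maf protein that pairs with NRF2, rose in both, by a log2 fold change of 1.75 ± 0.15 (adjusted p = 8.33e-07) in Il23rΔTreg mice and 1.27 ± 0.19 (adjusted p = 0.000202) in WT mice. Maf, a factor of macrophages and T cells, fell in Il23rΔTreg tumors (-1.68, adjusted p = 0.000106) and was at -0.62 (adjusted p = 0.151) in WT mice, with no call in the interaction (adjusted p = 0.301). Batf3, Batf and Jdp2, of which the Batf proteins pair with Jun and interferon regulatory factors in lymphocytes and dendritic cells, rose in WT tumors (1.56, 1.39 and 1.37, adjusted p of 0.00319, 0.0263 and 0.00819). In Il23rΔTreg tumors Batf3, Batf and Jdp2 had log2 fold changes of -0.08, -0.55 and 0.41, none past the threshold. The call of Batf in WT tumors ended without any 1 of the 3 WT mice (adjusted p of 0.0761 to 0.111), and that of Jdp2 without the tumor library of mouse2988 (0.80, adjusted p = 0.0589). Of 20 alternatives, 16 kept the WT call of Batf and 18 that of Jdp2, whose adjusted p ran up to 0.0632.

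The Batf genes were also the partners that differed between the genotypes, 3 of 12 lower in Il23rΔTreg tumors, against 1.58% of all genes. In Il23rΔTreg tumors Batf was at 1.643, 2.096, 0.9992, 1.716 and 1.076 CPM, against 6.814, 4.864 and 3.143 CPM in WT tumors. Batf3 was at 0.9687, 2.077, 2.185, 2.217 and 2.107 CPM in Il23rΔTreg tumors, against 6.426, 4.589 and 6.14 CPM in WT tumors. Batf2 was at 12.55, 16.06, 10.94, 16.66 and 28.73 CPM in Il23rΔTreg tumors, against 70.21, 35.97 and 32.34 CPM in WT tumors. No Il23rΔTreg tumor reached the lowest WT tumor for any of the 3, as was the case for 7.09% of all genes. The log2 fold changes were -1.71 ± 0.40 (adjusted p = 0.0401), -1.58 ± 0.30 (adjusted p = 0.0219) and -1.44 ± 0.32 (adjusted p = 0.037) for Batf, Batf3 and Batf2. Leaving out WT mouse2988 ended all 3 calls (adjusted p of 0.176, 0.0696 and 0.196), as did leaving out mouse2902, mouse2903, mouse2989 or mouse3883 (adjusted p of 0.0511 to 0.111), leaving out only the tumor library of mouse2988, or scaling by library size only. Without mouse2901 the call of Batf2 ended (adjusted p = 0.0548), as it did with only the tumor groups fitted (0.0625), and without mouse2904 those of Batf2 and Batf (0.0625 and 0.0601). T cell markers moved in the same direction, 8 of 8 lower in Il23rΔTreg than in WT tumors (17.18 to 34.3 against 78.73 to 109.3 summed CPM), as did 4 of 8 macrophage markers (159.8 to 337.8 against 583.7 to 782.7 summed CPM) and 4 of 6 B and plasma cell markers (64.37 to 596.6 against 510.5 to 1355 summed CPM). The median log2 fold changes of these lists were -2.17, -1.09 and -2.97. None of these markers was at 0 in all libraries of a group, and the part of such cells in the Batf values was not tested.

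Of 20 genes given as AP-1 targets, 16 were higher and 0 lower in Il23rΔTreg tumors (median log2 fold change 1.80), and 13 were higher and 0 lower in WT tumors (median 1.44). Over all genes, 9.53% were called higher and 16.1% lower in Il23rΔTreg tumors, and 12.1% and 12.9% in WT tumors. This list, like the others, was chosen with earlier results of these data known. Ccnd1, which encodes cyclin D1, rose in both genotypes (adjusted p = 2.07e-06 in Il23rΔTreg and 5.33e-05 in WT mice), to 231.1 ± 15.9 CPM in Il23rΔTreg tumors against 87.55 ± 12.6 CPM in their adjacent normal colon (SD, n = 5 each) and to 201.3 ± 29.9 CPM in WT tumors against 74.38 ± 14.4 CPM in WT adjacent normal colon (SD, n = 3 each). Ptgs2, which encodes the prostaglandin synthase COX-2, rose in both genotypes, by a log2 fold change of 3.15 ± 0.31 (adjusted p = 2.09e-06) in Il23rΔTreg and 1.37 ± 0.38 (adjusted p = 0.00972) in WT mice, where the call ended without mouse2989 (1.23, adjusted p = 0.0596). Plaur, the urokinase receptor, also rose in both, by 1.87 ± 0.29 (adjusted p = 8.13e-05) in Il23rΔTreg and 2.44 ± 0.38 (adjusted p = 0.000238) in WT mice. Between the genotypes, 2 of the 20 targets were higher in Il23rΔTreg than in WT tumors and 0 lower (median 0.44), against 0.146% of all genes higher and 1.58% lower. Ptgs2 was at 46.78, 20.23, 45, 27.7 and 30.84 CPM in Il23rΔTreg tumors, against 8.022, 14.25 and 12.9 CPM in WT tumors, with a log2 fold change of 1.54 ± 0.35 (adjusted p = 0.0383). Mmp13, a collagenase, was at 556.9, 65.88, 102.9, 70.13 and 437.5 CPM in Il23rΔTreg tumors, against 39.89, 20.65 and 24.03 CPM in WT tumors (3.13 ± 0.76, adjusted p = 0.0459). All Il23rΔTreg tumors were above all WT tumors for both, as was the case for 9.34% of all genes. For Mmp13, mouse2901 and mouse3883 stood out. Leaving out any mouse other than mouse2904 ended both calls (adjusted p of 0.0545 to 0.138), as did scaling by library size only, under which Ptgs2 was at 1.78 (adjusted p = 0.0754) and Mmp13 at 3.52 (adjusted p = 0.0581). The call of Mmp13 also ended under limma without a block (2.59, adjusted p = 0.0658) and with only the tumor groups fitted (adjusted p = 0.113). Counting every setting run, the call held under 11 of 20 alternatives for Ptgs2 and under 9 of 20 for Mmp13.

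**Figure D5:**
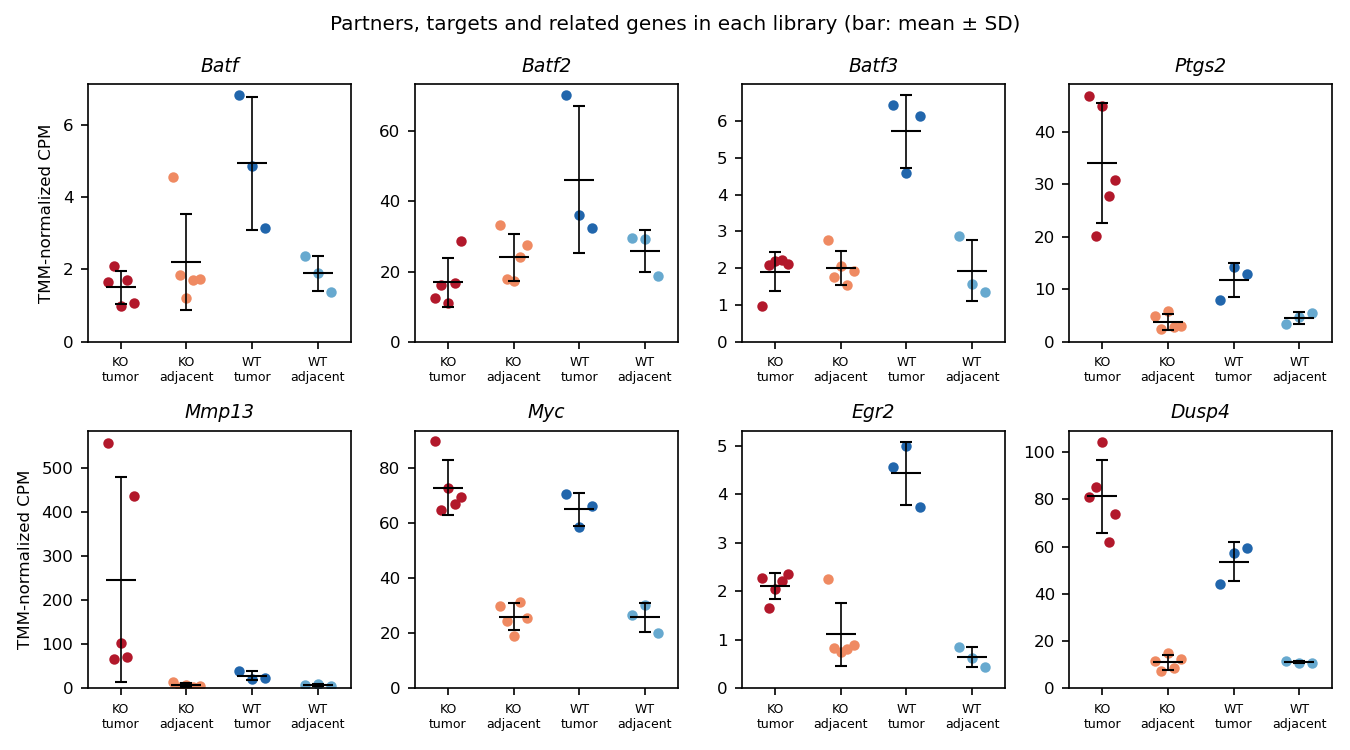
TMM-normalized CPM (vertical axes, each starting at 0) of Batf, Batf2 and Batf3, of the AP-1 targets Ptgs2 and Mmp13, of the immediate early genes Myc and Egr2 and of Dusp4 in tumors and adjacent normal colon of 5 Il23rΔTreg (KO) and 3 WT mice. Points are libraries and bars the mean and SD; the Il23rΔTreg tumors lie below the WT tumors for Batf, Batf2 and Batf3 and above them for Ptgs2 and Mmp13.

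Of 32 other immediate early genes, 31 were tested. In Il23rΔTreg tumors 6 were higher and 2 lower (median log2 fold change 0.28), and in WT tumors 8 were higher and 3 lower (median 0.41). The shares of all genes were 9.53% higher and 16.1% lower in Il23rΔTreg tumors, and 12.1% and 12.9% in WT tumors. Myc, a driver of cell growth that Wnt and growth factor signals induce, was at 72.96 ± 10.0 CPM in Il23rΔTreg tumors and 26.08 ± 4.82 CPM in their adjacent normal colon (SD, n = 5 each), and at 65.16 ± 6.05 CPM in WT tumors and 25.76 ± 5.18 CPM in WT adjacent normal colon (SD, n = 3 each). Nr4a2, an orphan nuclear receptor, rose in both genotypes, by a log2 fold change of 1.95 ± 0.24 (adjusted p = 1.34e-05) in Il23rΔTreg and 1.29 ± 0.30 (adjusted p = 0.00412) in WT mice, where the call ended without mouse2990 (1.01, adjusted p = 0.0647). Egr2, a relative of Egr1, had a log2 fold change of 0.93 (adjusted p = 0.02) in Il23rΔTreg mice, under the fold limit, and rose in WT tumors (2.78 ± 0.42, adjusted p = 0.000192). The Il23rΔTreg value of Egr2 stayed uncalled under 15 of 20 alternatives. Settings in which it passed included the mouse as a replicate block (1.05, adjusted p = 0.0113) and the fit without mouse2901 (1.33, adjusted p = 0.000627). The interaction of Egr2 did not pass (adjusted p = 0.165). Its level in adjacent normal colon was low, at 0.7504 to 2.264 CPM in Il23rΔTreg and 0.4478 to 0.8622 CPM in WT mice. Klf4, a factor of differentiated colon epithelium, fell by 1.90 in Il23rΔTreg and by 1.84 in WT tumors (adjusted p = 9.65e-06 and 0.000271). Npas4, an early gene best known from neurons, fell by 2.87 in Il23rΔTreg and by 3.09 in WT tumors (adjusted p = 9.61e-06 and 0.000146). It was scarce, at 0.1334 to 0.5721 CPM in Il23rΔTreg tumors against 2.035 to 3.037 CPM in their adjacent normal colon. In WT mice it was at 0.1725 to 0.5876 CPM in tumors against 3.206 to 3.444 CPM. Enteric neuron and glia markers were lower in the same contrasts (7 of 8 in each genotype, 8.421 to 13.61 against 24.34 to 41.12 summed CPM in Il23rΔTreg mice and 8.843 to 10.31 against 36.51 to 46.81 in WT mice), and their part was not tested.

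Among 14 feedback inhibitors of MAP kinases, 1 was higher in Il23rΔTreg and 3 in WT tumors, and 0 were lower in either. Of all genes, 9.53% were higher and 16.1% lower in Il23rΔTreg tumors, and 12.1% and 12.9% in WT tumors. Dusp4, a nuclear phosphatase of ERK, p38 and JNK that ERK signals induce, was at 81.14, 85.14, 104.1, 61.83 and 73.92 CPM in Il23rΔTreg tumors, against 11.51, 7.363, 14.97, 8.594 and 12.6 CPM in their adjacent normal colon. WT tumors had 44.08, 57.21 and 59.49 CPM of Dusp4, against 11.5, 10.78 and 10.83 CPM in WT adjacent normal colon. Tumor and adjacent normal libraries did not overlap, as for 17.2% of all genes higher in Il23rΔTreg and 23.4% in WT tumors. The log2 fold change was 2.88 ± 0.19 (adjusted p = 1.31e-07) in Il23rΔTreg mice and 2.28 ± 0.25 (adjusted p = 2.46e-05) in WT mice. Dusp10, a phosphatase of the same family, lay at the fold limit in both genotypes, at 0.96 (adjusted p = 0.000912) in Il23rΔTreg and 1.01 (adjusted p = 0.00603) in WT mice. In Il23rΔTreg mice it stayed uncalled under 15 of 20 alternatives. The settings that put it past that limit there included those without mouse2901 (1.07), mouse2904 (1.11) or the tumor library of WT mouse2988 (1.02). In WT mice it was below the limit without mouse2988 (0.97, adjusted p = 0.0337), its tumor library alone (0.91, adjusted p = 0.0206) or mouse2990 (0.87, adjusted p = 0.0598). Dusp2, another of the family, had a log2 fold change of -0.40 (adjusted p = 0.437) in Il23rΔTreg mice and rose in WT tumors (2.19, adjusted p = 0.00542), and its interaction did not pass (-2.59, adjusted p = 0.161).

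Of 22 kinases and factors upstream of AP-1, 1 was higher and 2 lower in the tumors of each genotype. For this list and the next, the shares of all genes were 9.53% higher and 16.1% lower in Il23rΔTreg tumors. In WT tumors they were 12.1% and 12.9%. Elk3, a ternary complex factor, rose by 1.32 ± 0.19 in Il23rΔTreg and 1.48 ± 0.25 in WT mice (adjusted p = 6.05e-05 and 0.000451). Map2k1, which encodes the ERK kinase MEK1, fell by 1.28 in Il23rΔTreg and by 1.36 in WT mice (adjusted p = 5.27e-06 and 9.12e-05). Map2k6, a kinase of p38, fell by 1.58 in Il23rΔTreg and by 1.38 in WT mice (adjusted p = 8.81e-05 and 0.00306), and its WT call ended without mouse2990 (adjusted p = 0.0508). Of 14 heat shock and hypoxia stress genes, 1 was higher and 3 lower in Il23rΔTreg tumors, and 0 were higher and 2 lower in WT tumors. Hspa1a and Hspa1b, near-identical copies of inducible HSP70 whose reads may be split between them, fell by 1.86 and 1.60 in Il23rΔTreg tumors and by 1.59 and 1.33 in WT tumors (adjusted p of 0.000134, 0.000366, 0.00497 and 0.0115). Without mouse2988 neither passed in WT mice (adjusted p of 0.0509 and 0.0738), nor did Hspa1b with only the WT groups fitted (0.0566). Ddit4, a hypoxia-induced inhibitor of mTOR, rose in Il23rΔTreg tumors (1.20, adjusted p = 0.000656) and was at 0.88 (adjusted p = 0.0307) in WT mice, under the fold limit. Hspb1, a small heat shock protein, fell in Il23rΔTreg tumors (-1.20, adjusted p = 0.0153), though not without mouse2904 (-0.91, adjusted p = 0.0848), and was at -1.09 (adjusted p = 0.0839) in WT mice.

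Within groups, the members did not vary as 1 block. Deviations from the group means on the log2(CPM + 1) scale, over 16 libraries of 8 mice that share depth and dissection, were most alike for Fosl1 and Jund (Pearson's r = 0.884), Fosb and Atf3 (0.82), Jund and Atf3 (0.762) and Fos and Egr1 (0.753). Without the tumor library of WT mouse2988 these were 0.616, 0.815, 0.848 and 0.778 over 15 libraries. Fosl2 ran against Ier3 (-0.471), Jund (-0.452) and Fosl1 (-0.427), weakening to -0.359, -0.33 and -0.28 without that library. Of genes outside the 10, those most like Ier3 by the same measure were Ier5l (0.953), Them6 (0.945) and Timp1 (0.94), and those most like Fosl1 were Smox (0.94), Hmces (0.92) and Triobp (0.915). Jun was closest to Siah1b (0.903), Ifrd1 (0.885) and Cenpo (0.861), and Fos to Fam83h (0.86), Camk2b (0.835) and Aacs (0.829). Without the tumor library of mouse2988 the r of Fosl1 with Triobp was 0.694, and the other 11 were 0.821 to 0.93. These genes were picked for the highest r among all genes outside the 10 whose log2(CPM + 1) averaged 2 or more. How high r runs by such a search alone was not tested, so these likenesses are description only.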

How the data were processed

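RNA-seq counts of 16 libraries (stranded, poly(A)-selected) were analysed. The authors trimmed reads with fastp 0.20.0, quantified transcripts with Salmon 1.4.0 and deposited per-gene estimated counts in whole numbers, which were used as they stand. They name Gencode version 21, but most gene identifiers carry later versions than mouse release M21, so the release is not known. Deposited fold changes and p-values of their limma 3.50.3 and DESeq2 1.34.0 comparisons were not used, and neither were 64 sample columns whose names match no mouse in the labels.

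Groups and mouse numbers came from the labels. edgeR 4.0.16 (R 4.3.3; filterByExpr with a minimum count of 10, TMM, quasi-likelihood test, all 4 groups in 1 fit) gave log2 fold changes, adjusted over 17122 genes by the Benjamini-Hochberg method. Calls needed an adjusted p below 0.05 together with a log2 fold change over 1 in size, after the study's methods. Intervals use the t distribution of that test. Total counts were 34418067 to 60836474 per library. The standard errors are the size of the log2 fold change divided by the square root of the quasi-likelihood test's F statistic. That test draws on the spread between libraries within the 4 groups, with information shared over all genes. They do not measure the spread of differences within mice.

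Each mouse number stands for 1 animal that gave both tissues, so the libraries are pairs. The fit has no mouse term, and the fit with the mouse as a block is given where it changes a call. The deviations of the 8 pairs from their group means correlated from -0.399 to 0.488. Alternatives were the mouse as a replicate block (limma's voom with a correlation of 0.127 for comparisons between genotypes), DESeq2 1.42.0, limma 3.58.1 on log2 CPM without and with the cage label as a block (estimated correlation -0.0873; the tumor and adjacent normal libraries of mouse2901 carry different cage labels), other normalizations, filters and thresholds, only the groups compared, each mouse left out, and the tumor library of WT mouse2988 left out. The fit was tested on simulated data.

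The 10 members and the gene lists were chosen with earlier results of these data known. Named genes outside the members were up to 2 called genes per list and direction with the smallest p, or all in lists of 5 or fewer called; likeness is Pearson's r of deviations from group means among genes whose log2(CPM + 1) averaged 2 or more. The Jun promoter letters were added after the sequences were seen. Exon lengths are of GENCODE M21 (GRCm38) and promoters of RefSeq (GRCm38.p6).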

Additional observations from a re-analysis of the deposited data

Results flagged for a closer look

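Fos was the only member whose tumor effect had opposite signs in every mouse of the 2 genotypes. How many of all genes split this way was not counted. The difference between tumor and adjacent normal colon on the log2(CPM + 1) scale was 0.029 to 0.939 in the 5 Il23rΔTreg mice and -0.332 to -0.0278 in the 3 WT mice. These signs were not themselves a test; edgeR's interaction for Fos was 0.44 (95% interval -0.35 to 1.24, adjusted p = 0.538), and its adjusted p over the alternatives ran from 0.276 to 0.748.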

How the results depend on the processing

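Of 990 values of the members under the alternatives, 924 kept their direction and their side of the thresholds, 57 changed sign with no call under either setting, 6 gained a call and 3 lost one, and 0 called values reversed. In Il23rΔTreg mice the same number of members, 4, was called in tumors under all alternatives on the fit, and 5 without the fold limit or at an adjusted p under 0.10 and a fold over 1.5. In WT mice the number was 4, with 5 under DESeq2, under library size only and with the replicate block (each gaining Atf3), and 3 to 5 when mice were left out in turn. At an adjusted p under 0.10 and a fold over 1.5 it was 7 (6 higher and 1 lower), and at these limits 1 member, Jun, was called between Il23rΔTreg and WT tumors. Atf3 under library size only had 1.12 (adjusted p = 0.0433). The replicate block also gained Egr2 in Il23rΔTreg tumors (1.05, adjusted p = 0.0113) and changed no other call of a gene named here. Scaling by library size only put the median log2 fold change of all genes at 0.11 in Il23rΔTreg tumors against adjacent normal colon (-0.001 with TMM), at 0.23 between the genotypes in adjacent normal colon (0.019 with TMM) and at 0.295 in tumors (0.011 with TMM). Over all genes, 25 were called higher and 271 lower in Il23rΔTreg than in WT tumors, against 104 and 635 by DESeq2, 86 and 474 by limma with the cage label as a block (a label that differs between the libraries of mouse2901), 23 and 410 with only the tumor groups fitted, 42 and 233 by limma without a block, 19 and 27 by library size only, and as few as 1 and 0 without mouse2989; without mouse2902, mouse2903, mouse2988 or mouse3883 there were 3 to 6 in both directions together. The interaction, at 0 genes by edgeR, had 22 and 327 by DESeq2. In adjacent normal colon 1 gene was called higher, against 7 higher and 1 lower by DESeq2, 2 higher by limma and 4 without mouse2901. The causes were not tested. Fosl1 and Fosb, and outside the members Npas4, Egr2, Batf and Batf3, were under 1 CPM in some libraries. How far depth limits their values was not tested.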
